A study of Mus musculus with 12 samples.

Results

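The Bcl2 family genes described here were 10 protein-coding genes of the intrinsic apoptosis pathway, taken by exact gene name from the 53715 genes of each deposited table. The guardians were Mcl1, Bcl2l1 and Bcl2, the BH3-only genes were Bcl2l11 (Bim), Hrk, Bmf, Bid, Bad and Bik, and the effector was Bak1. The rule that took them used gene names and no expression value, but the members were chosen with earlier results of these data known. Gene levels had been measured by RNA sequencing in 12 libraries, 2 in each of 6 groups. The ES cell groups were mouse ES cells derived from the inner cell mass and given CX-5461, Rapamycin or Rotenone, and the untreated Control. CX-5461 inhibits RNA polymerase I, Rapamycin inhibits the mTOR kinase and Rotenone inhibits respiratory complex I. All ES cells, Control included, were cultured with LIF/2i on feeders of mouse embryonic fibroblasts, which the labels say were depleted before RNA was taken. The embryo groups were C57BL/6J embryos given CX-5461 and untreated Control embryos, which the study describes as morulae grown to blastocysts, with a few pooled embryos and pre-amplified cDNA behind each library. The comparisons asked how the survival and death genes of this family stood under each of the treatments.

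Bcl2 family proteins set whether the mitochondrial outer membrane stays intact. Guardians bind and hold the other members through a groove that takes the BH3 helix, BH3-only proteins report stress by filling that groove or by acting on the effectors, and the effectors Bak1 and Bax oligomerise and form the pores through which cytochrome c leaves the mitochondrion. Mouse ES cells and early embryos are known for a low threshold to apoptosis, and Mcl1 is required for peri-implantation development in mice.

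The stretch that gives BH3-only proteins their name is short, and it is shown for every member because it is the feature the family shares. Each run below holds the 6 codons of the BH3 core in capitals, from its leucine codon to its aspartate codon, with 5 codons on each side in lower case, 48 bases in all, written on the coding strand 5′ to 3′ from GRCm38 with GENCODE M21 coding exons. Each was the single match of this core in the chosen transcript and lay within a single coding exon.
Mcl1 (chr3:95659421-95659468, plus strand): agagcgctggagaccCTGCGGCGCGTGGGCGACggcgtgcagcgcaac
Bcl2l1 (chr2:152829691-152829738, minus strand): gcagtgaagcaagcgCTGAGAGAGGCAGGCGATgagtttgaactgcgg
Bcl2 (chr1:106712569-106712616, minus strand): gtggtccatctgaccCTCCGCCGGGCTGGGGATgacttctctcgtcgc
Bak1 (chr17:27022525-27022572, minus strand): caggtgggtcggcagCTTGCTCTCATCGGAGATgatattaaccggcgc
Bcl2l11 (chr2:128147135-128147182, plus strand): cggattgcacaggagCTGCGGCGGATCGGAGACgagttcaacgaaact
Hrk (chr5:118169876-118169923, plus strand): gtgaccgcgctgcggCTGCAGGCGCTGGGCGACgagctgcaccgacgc
Bmf (chr2:118545094-118545141, minus strand): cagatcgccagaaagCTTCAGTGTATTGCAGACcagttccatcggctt
Bid (chr6:120897283-120897330, minus strand): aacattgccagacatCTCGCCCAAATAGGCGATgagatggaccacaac
Bad (chr19:6950777-6950824, plus strand): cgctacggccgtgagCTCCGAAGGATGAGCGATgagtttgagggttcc
Bik (chr15:83543069-83543116, plus strand): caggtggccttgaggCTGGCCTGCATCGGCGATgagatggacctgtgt
Over the 48 aligned bases, Bak1 and Bik shared 31, Bid and Bik 28, and Bcl2l11 and Bmf 27. The guardians Bcl2 and Bcl2l1 shared 24 bases, and Mcl1 and Bcl2l1 shared 20. Over the 16 encoded residues the order differed. Bid and Bik shared 9, Bcl2l11 and Bad 8, and Bcl2 and Bcl2l1 8. Bak1 and Bik shared 7 residues, Bcl2l11 and Bmf 6, and Mcl1 and Bcl2l1 4.

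Promoters are shown for Mcl1, Bak1 and Bcl2l11, the guardian, the effector and the BH3-only gene on which the results below turn. Each is the 250 bases before the first RefSeq start of the gene in GRCm38.p6, read along the gene, and capitals mark matches to the motifs searched.
Mcl1 (chr3:95658471-95658720, plus strand): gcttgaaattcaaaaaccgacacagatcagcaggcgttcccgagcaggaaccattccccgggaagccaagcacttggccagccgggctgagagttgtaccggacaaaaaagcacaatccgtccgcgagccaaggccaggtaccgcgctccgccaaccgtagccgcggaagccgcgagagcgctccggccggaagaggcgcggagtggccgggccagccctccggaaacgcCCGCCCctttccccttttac
Bak1 (chr17:27028628-27028877, minus strand): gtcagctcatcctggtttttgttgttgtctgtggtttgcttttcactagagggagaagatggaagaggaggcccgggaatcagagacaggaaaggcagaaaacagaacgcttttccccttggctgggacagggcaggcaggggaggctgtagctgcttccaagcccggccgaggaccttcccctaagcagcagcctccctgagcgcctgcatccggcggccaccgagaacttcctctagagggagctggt
Bcl2l11 (chr2:128125788-128126037, plus strand): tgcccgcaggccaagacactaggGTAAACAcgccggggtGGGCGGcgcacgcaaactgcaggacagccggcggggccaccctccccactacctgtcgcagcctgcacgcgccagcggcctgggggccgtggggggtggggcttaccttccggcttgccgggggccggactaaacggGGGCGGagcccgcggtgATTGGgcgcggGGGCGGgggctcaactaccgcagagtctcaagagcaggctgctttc
All motifs were searched on both strands, and no match in the member promoters overlapped another. The forkhead core GTAAACA was found in 3.17% of the 32851 RefSeq promoter windows of this length, the box CCAAT in 33.8% and the GC box GGGCGG in 32.7%. The AP-1 site TGANTCA was found in 6.75% of the windows, the E-box CACGTG in 6.02%, the TATA box TATAAA in 12.4% and the p53 consensus decamer, searched under that name, in 7.13%. The Bcl2l11 window held a GTAAACA 227 to 221 bases before the start, 3 GC boxes and 1 CCAAT box on the reverse strand. Another RefSeq window of Bcl2l11, not printed here, held CCAAT and GC boxes and no GTAAACA. The Mcl1 window held 1 GC box on the reverse strand, and the Bak1 window held none of the motifs. The windows were 72.0% G or C for Bcl2l11, 64.4% for Mcl1 and 58.4% for Bak1, against a median of 52.4% over all windows. RefSeq windows were matched for 9 of the 10 members, and Bik had no entry.

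Levels are given in TPM, the number of a gene's transcripts among 1000000, corrected for transcript length, with each library scaled to that total. Changes come from limma as log2 fold changes of TPM + 1, given with their standard error (SE), and a change is called where its p, adjusted by Benjamini-Hochberg over all tested genes, is below 0.05. On this scale changes of low genes are understated. A gene was tested if it reached 1 TPM in at least 2 libraries of its table, which 9 of the 10 members did in ES cells and 6 in embryos. TPM holds no read counts, so the depth of the libraries is unknown. Separate cultures or litters are not named in the labels, although the study describes independent experiments, so the p-values cover only the spread between these samples. In ES cells the median change of all 17638 tested genes was 0.43 with CX-5461, 0.13 with Rapamycin and 0.27 with Rotenone, and it was 0.05 over the 13289 genes tested in embryos. After median-ratio scaling, 52.6% of the genes called with CX-5461 were higher, and after quantile scaling 46.0%, against 79.3% of them on the TPM scale used here. For Rotenone the same shares were 50.5% and 48.9%, against 76.2%, for CX-5461 over Rapamycin 55.2% and 48.0%, against 77.9%, and for CX-5461 over Rotenone 60.9% and 53.02%, against 77.7%. Feeder cell markers also moved: the summed level of 20 fibroblast genes was 5203 and 5628 TPM in CX-5461 cells, 2786 and 2311 TPM in Rapamycin cells and 4867 and 5194 TPM in Rotenone cells, against 1392 and 1726 TPM in Control, with none of the 20 at 0, and all 20 were called higher with CX-5461 and with Rotenone. The part of these cells in the levels of the Bcl2 family was not tested, and in bulk RNA fewer cells of a type and less RNA per cell cannot be told apart. The summed level of 8 ES cell markers was 4373 and 4499 TPM with CX-5461, 6428 and 6645 TPM with Rapamycin and 5728 and 5750 TPM with Rotenone, against 6455 and 6524 TPM in Control. The single markers did not all follow the sum. With CX-5461 1 of the 8 was called higher and 4 lower, beside 42% and 11% of all tested genes. With Rotenone 2 were higher and 2 lower, beside 30.6% and 9.57%.

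Bcl2l11 and Mcl1 were the members called higher with CX-5461 in ES cells. The Mcl1 change of 0.44 stood beside a median of 0.43 over all tested genes, and its call was lost after median-ratio scaling. Bcl2l11 and Bak1 rose with Rotenone and Bad fell, while Hrk, which reached 1 TPM in the Rotenone libraries alone, was tested only through the group in which it was high. With Rapamycin the effector Bak1 stood higher in both libraries without passing the test. With CX-5461, 2 of the 9 tested members passed, both higher, against 53% of all tested genes in either direction, of which 42% were higher and 11% lower. The median change of the 9 members was 0.35, against 0.43 over all tested genes. Of the 9 members, 4 had both CX-5461 libraries above both Control libraries and 2 had them below, as did 57.4% and 19.4% of all tested genes. With Rotenone, 4 of 9 members passed, 3 higher and 1 lower, or 3 of 8 with Hrk left out, against 40.2% of all tested genes, where 30.6% were higher and 9.57% lower, and the members' median of 0.24 stood beside 0.27. Both Rotenone libraries lay above both Control libraries for 5 members and below them for 1, as for 51.4% and 21.8% of all tested genes. That median and the 5 members include Hrk, so neither is read as a result about the members. With Rapamycin, 0 of 9 members passed, against 0.0113% of all tested genes, while 1842 genes stood higher and 509 lower at an unadjusted p of less than 0.05, Bak1 and Bid among them. The Rapamycin libraries lay above Control for 3 members and below for 2, as for 29.5% and 11.4% of all tested genes. The 3 treatments were set against the same 2 Control libraries.

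The treatments were also set against each other. Between CX-5461 and Rapamycin, Bcl2l11 and Mcl1 were higher and Bak1 lower with CX-5461, 3 of 9 members, against 39.7% of all tested genes, where 30.9% were higher and 8.76% lower. Both CX-5461 libraries were above both Rapamycin libraries for 6 members and below for 2, as for 51.1% and 21.4% of all tested genes. Between CX-5461 and Rotenone, Mcl1 and Bik were higher and Bid and Bak1 lower with CX-5461, 4 of 9 members, against 22.1% of all tested genes, where 17.2% were higher and 4.93% lower. The CX-5461 libraries were above those of Rotenone for 4 members and below for 3, Hrk among the 3, as for 44.5% and 25% of all tested genes. Each of these 4 calls was lost on leaving out any single library of the pair of groups, except that the call of Bik held without Rotenone replicate 2.

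**Figure D1:**
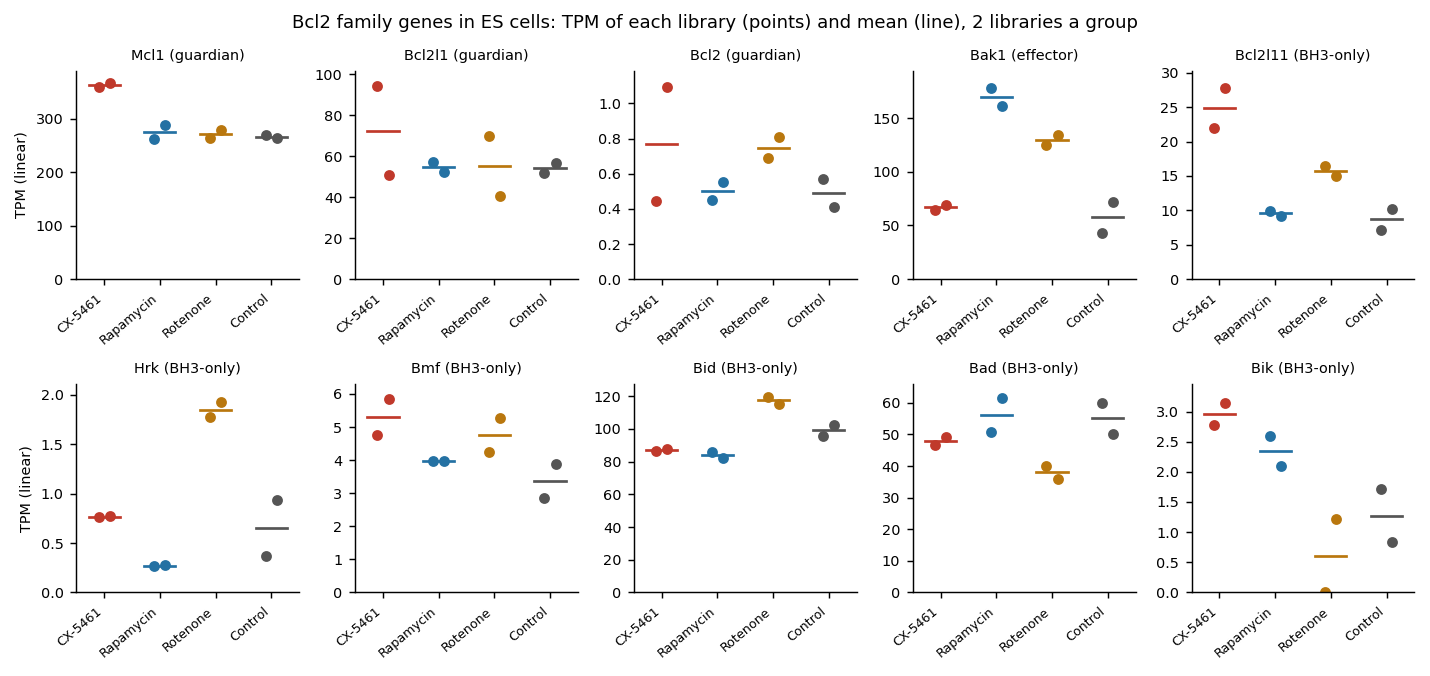
TPM on a linear axis from 0 for each of the 10 genes in ES cells given CX-5461, Rapamycin or Rotenone and in Control. Points are libraries, 2 in each group, and lines are means. Bcl2l11 was highest with CX-5461, at 22.0 and 27.8 TPM, and Bak1 highest with Rapamycin, at 178 and 161 TPM.

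Among the members, Mcl1 transcripts had the highest mean in every ES group. In Control ES cells Mcl1, at 266 ± 3.62 TPM (SD, n = 2), was followed by Bid at 99.1 ± 4.64 TPM, and their libraries did not overlap. Bak1, Bad and Bcl2l1 came next in Control with means of 57.8, 55.0 and 54.1 TPM and overlapping libraries. Bcl2l11 at 8.72 TPM and Bmf at 3.37 TPM stood below them, each apart from its neighbours, and Bik, Hrk and Bcl2 closed the order with means of 1.27, 0.65 and 0.49 TPM and overlapping neighbours. Bak1 took the second place with Rapamycin and with Rotenone, where its libraries lay apart from those of Mcl1 above and of Bid below. With CX-5461 the second place stayed with Bid, whose libraries overlapped those of Bcl2l1 below it.

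Mcl1 lies on chr3:95658788-95663176 on the plus strand and encodes a short-lived guardian that holds Bim and Bak1. Its level was 359 and 366 TPM with CX-5461, 263 and 289 TPM with Rapamycin and 264 and 279 TPM with Rotenone, against 269 and 264 TPM in Control. Both CX-5461 libraries lay above the other 6, and the Rapamycin and Rotenone libraries overlapped Control. The change with CX-5461 was 0.44 ± 0.08 (SE, adjusted p = 0.0042), which is 0.020 above the median of all genes, and after median-ratio scaling the sign turned to -0.022 with an adjusted p of 0.90. CX-5461 also stood above Rapamycin by 0.40 ± 0.08 (adjusted p = 0.0094) and above Rotenone by 0.42 ± 0.08 (adjusted p = 0.013). After median-ratio scaling these differences were 0.10 (adjusted p = 0.59) and 0.28 (adjusted p = 0.17). The call against Rapamycin was lost without either CX-5461 library, at 0.41 (adjusted p = 0.053) without replicate 1 and 0.38 (adjusted p = 0.072) without replicate 2. The call against Rotenone was lost without any single library of either group, with values of 0.38 to 0.46. With Rapamycin against Control the change was 0.05 with a 95% interval of -0.15 to 0.25, and with Rotenone 0.03 with an interval of -0.17 to 0.22, and both signs turned after median-ratio scaling, to -0.12 and -0.30.

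Bcl2l1, on chr2:152780668-152831728 on the minus strand, encodes the guardian Bcl-xL beside a shorter pro-apoptotic splice form, which gene-level values do not separate. It was at 94.2 and 50.8 TPM with CX-5461, 57.3 and 52.4 TPM with Rapamycin and 69.8 and 40.3 TPM with Rotenone, against 51.6 and 56.6 TPM in Control. The CX-5461 and the Rotenone libraries of each group lay far apart, on both sides of Control. None of the 3 changes passed, with 95% intervals of -0.43 to 1.13 for CX-5461, -0.76 to 0.80 for Rapamycin and -0.81 to 0.75 for Rotenone. The CX-5461 change of 0.35 turned to -0.11 after median-ratio scaling and to -0.089 without CX-5461 replicate 1. Bcl2 itself, the first guardian described in B-cell lymphoma and located on chr1:106538178-106714274 on the minus strand, was at 0.44 and 1.10 TPM with CX-5461, 0.45 and 0.55 TPM with Rapamycin and 0.69 and 0.81 TPM with Rotenone, against 0.57 and 0.41 TPM in Control. It was too low to be tested, and without the filter its change with CX-5461 was 0.23 (adjusted p = 0.45). An annotated antisense gene, D630008O14Rik, shares 558 exonic bases with Bcl2 and was listed at 0 in every library.

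Bak1, on chr17:27019810-27029009 on the minus strand, encodes the pore-forming effector that sits in the outer mitochondrial membrane. Its level was 64.9 and 68.7 TPM with CX-5461, 178 and 161 TPM with Rapamycin and 125 and 134 TPM with Rotenone, against 43.3 and 72.3 TPM in Control. All Rapamycin and Rotenone libraries lay above all Control and CX-5461 libraries, and the CX-5461 libraries lay between the 2 Control libraries. With Rotenone Bak1 rose by 1.20 ± 0.22 (SE, adjusted p = 0.0070), 0.92 above the median of all genes. This call held in all 12 alternatives, with changes of 0.83 to 1.56 and adjusted p of 0.0011 to 0.047. With Rapamycin the change was larger, 1.58 ± 0.22, with an unadjusted p of 0.00017 and an adjusted p of 0.12, which did not pass. It passed without either Control library, at 1.22 (adjusted p = 0.039) without Control replicate 1 and 1.94 (adjusted p = 0.0036) without Control replicate 2, and in none of the other alternatives. With CX-5461 the change of 0.25 ± 0.22 did not pass (adjusted p = 0.36). It turned to -0.21 after median-ratio scaling, to -0.069 after quantile scaling and to -0.11 without Control replicate 1, and without Control replicate 2 it passed at 0.61 (adjusted p = 0.0056).

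The CX-5461 libraries were below the Rapamycin libraries in Bak1 by -1.33 ± 0.22 (SE, adjusted p = 0.0033), a call that held in all 12 alternatives, and below the Rotenone libraries by -0.95 ± 0.22 (adjusted p = 0.023). The second call was lost on leaving out any single library of either group, with values of -0.99 to -0.90 and adjusted p of 0.090 to 0.13. The gene Ggnbp1 runs on the opposite strand and shares 614 exonic bases with Bak1. The sources used here do not state whether counting used strand, so reads there cannot be told apart, and Ggnbp1 was at 4.53 to 8.14 TPM over the ES libraries. Fibroblast marker sums were above Control in all 3 treatments, as given above, and their part in the Bak1 levels was not tested.

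**Figure D2:**
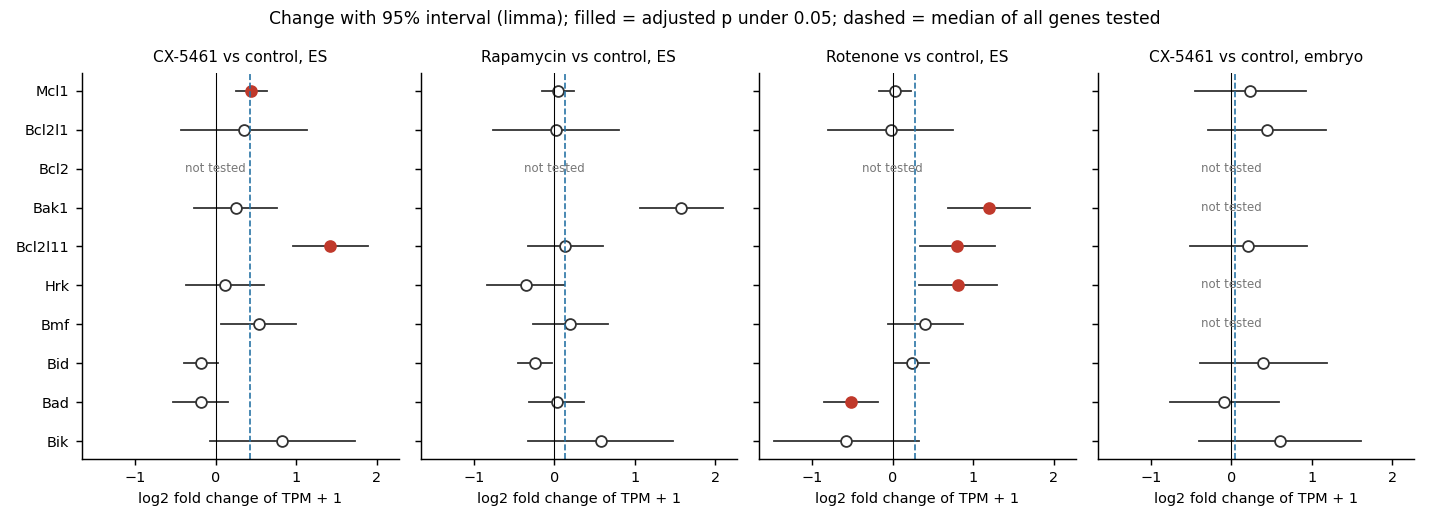
Log2 fold change of TPM + 1 of the members in 4 comparisons with the matching Control, with 95% intervals from limma. Filled points passed an adjusted p of 0.05, the dashed line is the median of all tested genes, and genes too low to test are marked as such. Bcl2l11 at 1.42 and Mcl1 at 0.44 are filled for CX-5461 in ES cells, and no point is filled for embryos or for Rapamycin.

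Bcl2l11, on chr2:128126038-128162547 on the plus strand, encodes Bim, a BH3-only protein that binds all guardians and activates the effectors. Its level was 22.0 and 27.8 TPM with CX-5461, 9.90 and 9.20 TPM with Rapamycin and 16.4 and 15.0 TPM with Rotenone, against 7.20 and 10.2 TPM in Control. Both CX-5461 libraries were above both Rotenone libraries, which in turn were above all Rapamycin and Control libraries. With CX-5461 Bcl2l11 rose by 1.42 ± 0.20 (SE, adjusted p = 0.0012), 1.00 above the median of all genes. The call held in all 12 alternatives, with changes of 0.80 to 1.65 and adjusted p of 0.0011 to 0.013. With Rotenone it rose by 0.80 ± 0.20 (adjusted p = 0.019). That call was lost after quantile scaling (0.31, adjusted p = 0.14), without Control replicate 1 (0.57, adjusted p = 0.073) and without Rotenone replicate 1 (0.74, adjusted p = 0.10) or replicate 2 (0.86, adjusted p = 0.071). With Rapamycin the change was 0.13 ± 0.20 with a 95% interval of -0.33 to 0.60, and its sign turned to -0.015 after median-ratio scaling and -0.088 after quantile scaling. CX-5461 stood above Rapamycin by 1.29 ± 0.20 (adjusted p = 0.0025), again in all 12 alternatives. Against Rotenone the difference of 0.62 ± 0.20 did not pass (adjusted p = 0.063), and passed at the same size when the pair of groups was fitted alone (adjusted p = 0.030).

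Hrk, on chr5:118164648-118189478 on the plus strand, encodes Harakiri, a BH3-only protein best known from neurons. It was at 0.77 and 0.77 TPM with CX-5461, 0.26 and 0.28 TPM with Rapamycin and 1.77 and 1.93 TPM with Rotenone, against 0.37 and 0.94 TPM in Control. The Rotenone libraries were the only ES libraries above 1 TPM, so Hrk entered the test through the group in which it was high, and its values against Rotenone are given as a description. Its difference from Control with Rotenone was 0.81 ± 0.20 (SE), 0.50 after quantile scaling and 0.56 without Control replicate 1. With no filter on low values, so that the Rotenone libraries did not decide its entry, the adjusted p was 0.036, while among the alternatives that kept the filter the call was lost after quantile scaling, with the pair of groups alone and without Control replicate 1. With CX-5461 the change of 0.12 ± 0.20 did not pass and changed sign under both other scalings, to -0.060 after median-ratio and -0.54 (adjusted p = 0.046) after quantile scaling, and to -0.13 without Control replicate 1. Both CX-5461 libraries lay below both Rotenone libraries, with a difference of -0.69 ± 0.20, which was -0.73 after median-ratio and -1.04 after quantile scaling. With no filter on low values this difference did not pass (adjusted p = 0.072). The fits that kept the filter are not read as tests of it. Bmf, on chr2:118528757-118549687 on the minus strand, encodes a BH3-only protein tied to the actin motor complexes. Its level was 4.75 and 5.85 TPM with CX-5461, 3.98 and 3.97 TPM with Rapamycin and 4.26 and 5.28 TPM with Rotenone, against 2.85 and 3.89 TPM in Control. All 6 treated libraries were above both Control libraries. The change with CX-5461 was 0.53 ± 0.20 (adjusted p = 0.055), which passed without Control replicate 2 (0.71, adjusted p = 0.034) and without an intensity trend (adjusted p = 0.041), and turned to -0.20 after quantile scaling.

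Bid, on chr6:120891930-120916853 on the minus strand, encodes the BH3 protein that caspase-8 cleaves, which ties death receptors to mitochondria. It was at 86.8 and 87.7 TPM with CX-5461, 85.9 and 82.3 TPM with Rapamycin and 120 and 115 TPM with Rotenone, against 95.8 and 102 TPM in Control. The CX-5461 and Rapamycin libraries lay below Control and the Rotenone libraries above it. With CX-5461 the change of -0.18 ± 0.09 (SE, adjusted p = 0.13) did not pass, though it was 0.61 below the median of all genes, and it passed after median-ratio scaling (-0.64, adjusted p = 0.0016) and quantile scaling (-0.35, adjusted p = 0.0090). With Rotenone the change of 0.24 ± 0.09 (adjusted p = 0.065) did not pass, turned to -0.081 after median-ratio scaling, and passed at 0.29 (adjusted p = 0.049) without Control replicate 2. CX-5461 stood below Rotenone by -0.42 ± 0.09 (adjusted p = 0.016), a call lost without any single library of either group, with values of -0.45 to -0.40. Bcl2l13, another family gene, overlaps Bid on the opposite strand over 628 exonic bases. It was at 28.5 and 29.1 TPM with CX-5461, 21.2 and 22.8 TPM with Rapamycin and 30.9 and 29.2 TPM with Rotenone, against 16.2 and 20.1 TPM in Control, and reads in the shared bases cannot be told apart.

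Bad, on chr19:6941861-6951899 on the plus strand, encodes a BH3-only protein that survival kinases hold inactive by phosphorylation. Its level was 46.8 and 49.3 TPM with CX-5461, 50.9 and 61.6 TPM with Rapamycin and 39.996 and 36.0 TPM with Rotenone, against 59.9 and 50.1 TPM in Control. Both Rotenone libraries were below all other ES libraries. With Rotenone Bad fell, with a change of -0.52 ± 0.14 (SE, adjusted p = 0.027), 0.79 below the median of all genes. The call was lost with the pair of groups fitted alone (adjusted p = 0.054), without Control replicate 1 (-0.39, adjusted p = 0.11) and without Rotenone replicate 1 (-0.59, adjusted p = 0.079) or replicate 2 (-0.45, adjusted p = 0.14). The CX-5461 change of -0.19 ± 0.14 (adjusted p = 0.30) did not pass, and passed after median-ratio scaling (-0.65, adjusted p = 0.025) and quantile scaling (-0.53, adjusted p = 0.029). Gpr137 shares 524 exonic bases with Bad on the opposite strand and was at 9.88 and 13.5 TPM with Rotenone, against 13.9 TPM in each Control library.

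Bik, on chr15:83526862-83544634 on the plus strand, encodes a BH3-only protein of the endoplasmic reticulum. It was at 2.78 and 3.14 TPM with CX-5461 and 2.59 and 2.09 TPM with Rapamycin, was listed at 0 and at 1.22 TPM with Rotenone, and was at 1.71 and 0.83 TPM in Control. The CX-5461 and Rapamycin libraries were above Control, and the Rotenone libraries overlapped it. Against Rotenone, CX-5461 was higher by 1.41 ± 0.38 (SE, adjusted p = 0.039). Without Rotenone replicate 1, the library listed at 0, the difference was 0.83 with an adjusted p of 0.15, and it also missed the threshold without either CX-5461 library (1.47 without replicate 1 and 1.34 without replicate 2), with a pseudocount of 0.1, without the filter and after median-ratio or quantile scaling. Against Control, the CX-5461 change of 0.83 ± 0.38 did not pass (adjusted p = 0.11), and passed at the same size with the pair of groups fitted alone (adjusted p = 0.045). The Rotenone change against Control was -0.58 ± 0.38 (adjusted p = 0.26), which was -0.004 without Rotenone replicate 1 and passed at -1.16 (adjusted p = 0.048) without Rotenone replicate 2, where the library listed at 0 stood alone.

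The balance of roles followed from these levels and was taken as a description, with no test. The effector Bak1 made up 9.505% and 10.4% of the summed TPM of the 10 members in CX-5461 cells, 27.3% and 24.3% in Rapamycin cells and 19.5% and 21.3% in Rotenone cells, against 8.13% and 12.9% in Control. Set against Bax, the other main effector, Bak1 was 10.1% and 11.6% of the pair's TPM in CX-5461 cells, 26.8% and 22.5% in Rapamycin cells and 19.2% and 20.6% in Rotenone cells, against 7.60% and 11.5% in Control. Over the 10 members alone, summed BH3-only TPM per guardian TPM was 0.36 and 0.42 in CX-5461 cells, 0.48 and 0.47 in Rapamycin cells and 0.54 and 0.55 in Rotenone cells, against 0.52 and 0.53 in Control. With the other BH3-only genes Pmaip1 and Bbc3 and the other guardians Bcl2l2, Bcl2l10, Bcl2a1a, Bcl2a1b and Bcl2a1d added, a choice made after the data were seen, the direction for CX-5461 turned, and the ratio was 1.051 and 1.11 in CX-5461 cells, 0.66 and 0.64 in Rapamycin cells and 0.84 and 0.84 in Rotenone cells, against 0.65 and 0.66 in Control. The lower CX-5461 ratio therefore held for the 10 members and not for the wider family. Among the members, the BH3-only sums of 164 and 175 TPM in CX-5461 cells spanned the 168 TPM of each Control library and the guardian sums were 454 and 418 TPM in CX-5461 cells, against 321 TPM in each Control library. Mcl1 made up 78.9% to 87.6% of the guardian sum over the 8 ES libraries.

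**Figure D3:**
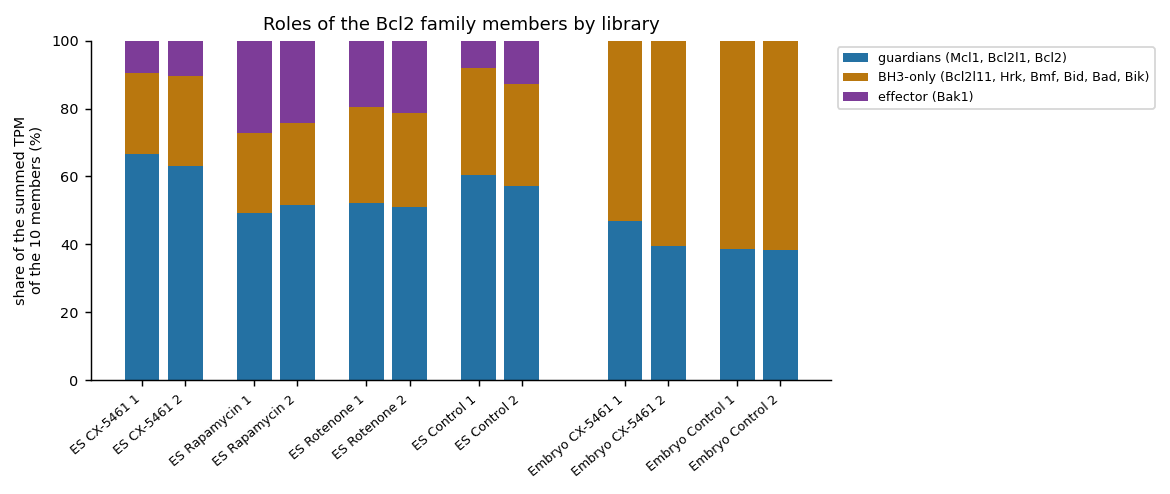
Share of the summed TPM of the 10 members, in percent from 0 to 100, held by guardians, BH3-only genes and the effector Bak1 in each of the 12 libraries. Bak1 took 27.3% and 24.3% with Rapamycin, against 8.13% and 12.9% in ES Control, and no more than 0.0890% in the embryo libraries.

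In embryos no member passed between CX-5461 and Control, 0 of 6 tested by limma, against 0.00753% of all tested genes, which is 1 gene. Before adjustment, 1151 genes were higher and 495 lower at a p of less than 0.05, and no member was among them. The median change of the 6 members was 0.32, against 0.05 over all tested genes. Bad had the highest mean of the members, at 55.7 and 64.7 TPM with CX-5461, against 73.7 and 55.2 TPM in Control, and Mcl1 followed at 53.9 and 41.7 TPM, against 44.6 and 36.0 TPM. Their libraries overlapped between the groups. Bcl2l1 was at 9.48 and 11.02 TPM with CX-5461, against 8.80 and 5.99 TPM in Control, and was the only tested member whose groups did not overlap, with a change of 0.44 ± 0.31 (SE, adjusted p = 0.57), as for 27.6% of all tested genes in that direction and 19.2% in the other.

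The BH3-only genes Bid, Bcl2l11 and Bik were low in embryos. Bid was at 6.22 and 10.7 TPM with CX-5461, against 5.76 and 6.22 TPM in Control, and Bcl2l11 at 4.24 and 3.83 TPM, against 2.79 and 3.96 TPM. The Bcl2l11 change was 0.21 ± 0.31 with a 95% interval of -0.51 to 0.94. Bik was at 5.31 and 1.8003 TPM with CX-5461, against 2.01 and 1.54 TPM in Control, a change of 0.60 ± 0.43 (adjusted p = 0.57). Without CX-5461 replicate 2, the Bik value was 1.19 and passed (adjusted p = 0.049), with the lone CX-5461 library assumed to vary as the Control libraries did. Bmf was at 0.16 and 0.17 TPM with CX-5461, against 0.29 and 0.24 TPM in Control. Bak1 reached at most 0.12 TPM and Bcl2 at most 0.078 TPM, and Hrk was listed at 0 in all 4 embryo libraries, so none of these 4 was tested. Bax, by contrast, was at 236 and 237 TPM with CX-5461, against 189 and 153 TPM in Control.

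**Figure D4:**
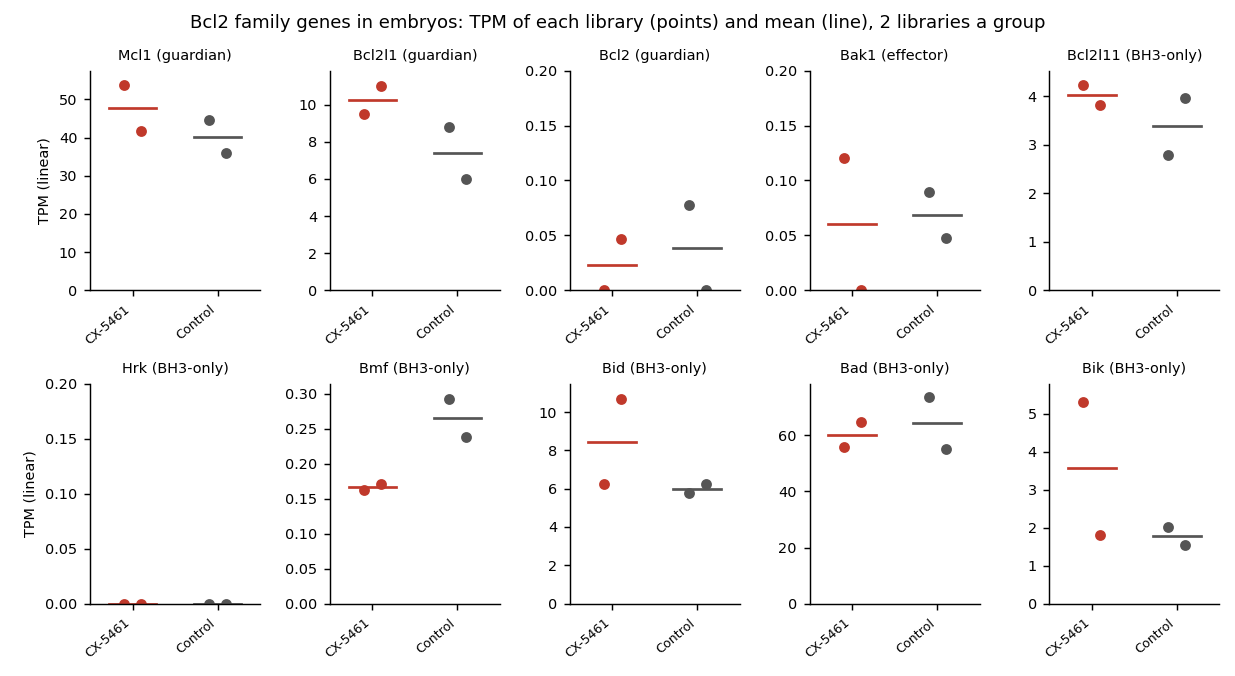
TPM on linear axes from 0 for each of the 10 genes in CX-5461 and Control embryos. Points are libraries, 2 in each group, and lines are means. Bad and Mcl1 stood highest, and Bak1 and Bcl2 reached at most 0.12 TPM in the 4 libraries.

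Between the tables, which differ in protocol and were scaled separately, untreated embryos and untreated ES cells are set side by side with no test. Bak1 was at 0.089 and 0.048 TPM in Control embryos, against 43.3 and 72.3 TPM in Control ES cells, and Bid at 5.76 and 6.22 TPM, against 95.8 and 102 TPM. Bad was at 73.7 and 55.2 TPM, against 59.9 and 50.1 TPM. Over the 10 members, summed BH3-only TPM per guardian TPM was 1.58 and 1.60 in Control embryos, against 0.52 and 0.53 in Control ES cells. The summed level of 10 trophectoderm markers was 5253 to 7201 TPM over the 4 embryo libraries and 133 to 210 TPM over the 8 ES libraries. Embryo Control replicate 1 had a deposited total of 639063, whereas the other 11 libraries summed to 999805 to 999914, and it was rescaled like the rest. Fibroblast markers summed to 145 and 61.4 TPM in CX-5461 embryos, against 24.6 and 23.0 TPM in Control embryos. Of these 20 markers, 9 to 12 were at 0 and 17 to 18 were under 1 TPM in each library, so the sums rested on few genes. The blood cell gene Hba-a1 was at 131 and 54.9 TPM, against 1.82 and 4.76 TPM, while the other haemoglobin gene of that list, Hbb-bt, was listed at 0 in all 4, and the part of such cells in the embryo levels was not tested.

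The remaining Bcl2 family genes were followed as a list of 18. With CX-5461 in ES cells 7 of the 15 tested were called higher and 3 lower, beside 42% and 11% of all tested genes, with a median of 0.54 beside 0.43. After median-ratio scaling 3 were higher and 5 lower, beside 4751 and 4287 of all 17638 tested genes. After quantile scaling they were again 3 and 5, beside 3827 and 4495. Pmaip1 (Noxa) and Bbc3 (Puma), BH3-only genes known as p53 targets, were at 167 ± 6.41 and 173 ± 3.48 TPM (SD, n = 2), against 11.4 ± 0.07 and 40.9 ± 3.89 TPM in Control, changes of 3.75 ± 0.11 (SE, adjusted p = 2.0e-05) and 2.05 ± 0.10 (adjusted p = 4.3e-05). Bcl2l2, which encodes the guardian Bcl-w, was at 32.5 ± 5.61 TPM, against 10.8 ± 3.31 TPM in Control, a change of 1.52 ± 0.22 (adjusted p = 0.0015). Bax changed by 0.02 with CX-5461, which did not pass, and after median-ratio scaling it was called lower at -0.45 (adjusted p = 0.032). With Rotenone 6 of 15 were higher and 1 lower, beside 30.6% and 9.57% of all tested genes. After median-ratio scaling 5 were higher and 3 lower, beside 3462 and 3395 of all tested genes. After quantile scaling they were 4 and 4, beside 2987 and 3125. The list's median with Rotenone was -0.039, beside 0.27 over all tested genes. Those called with Rotenone included Pmaip1 at 1.58 ± 0.11 (adjusted p = 0.00049), Bcl2l2 at 1.17 ± 0.22 (adjusted p = 0.0080) and Bcl2l14 at -1.45 ± 0.14 (adjusted p = 0.0011). Bbc3 was also called higher with Rotenone, at 0.995 ± 0.10 (adjusted p = 0.0012). Bcl2l14 was also called lower with CX-5461, at -1.39 ± 0.14 (adjusted p = 0.00038). The directions of Pmaip1, Bbc3, Bcl2l2 and Bcl2l14 were the same under both other scalings. With Rapamycin 0 of 15 passed, and in embryos 0 of 13.

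The genes whose ES profiles lay nearest to each member were taken by the root mean square (RMS) distance of centred log2(TPM + 1) over the 8 ES libraries, which share their culture, protocol and scaling, and are given as a description. Pgrmc2, at 0.036, and Exosc9, at 0.042, lay nearest to Mcl1, whose own RMS around its mean was 0.19. Hs3st1, at 0.075, and Asb7, at 0.086, lay nearest to Bcl2l11, whose own RMS was 0.59. Lama1, at 0.22, and Igf2bp2, at 0.31, lay nearest to Bak1, whose own RMS was 0.68. The nearest pair was Herpud1 and Clic4 for Hrk, Ankrd6 and Gpr108 for Bmf, Lin28a and Slc3a2 for Bid, Tipin and Prim1 for Bad, Lrrc73 and Lgals4 for Bik, and Hexdc and Crnkl1 for Bcl2l1, at distances of 0.040 to 0.26.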

How the data were processed

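Gene TPM of 8 ES cell and 4 embryo libraries were analysed as deposited. The authors trimmed reads with Trimmomatic, aligned them to mm10 with HISAT2, removed duplicates with Picard, kept unique alignments and estimated TPM with StringTie. Multi-mapping reads are therefore absent, and whether counting used strand is not given in the sources used here. TPM carry no depth, so no count test was run, although the study tested counts. Each library was scaled to 1000000, because embryo Control replicate 1 summed to 639063. Genes with at least 1 TPM in 2 libraries were tested on log2(TPM + 1) with limma 3.58.1 (R 4.3.3, mean-variance trend, two-sided), with all 4 ES groups in a shared fit and embryos apart, and p-values were adjusted over all tested genes by Benjamini-Hochberg. The method was run on simulated data with changes larger than those of any member as fitted. How well it finds changes of the members' size was therefore not tested.

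All 10 members were described in every comparison. From lists of other Bcl2 family genes, apoptosome and caspase genes, caspase inhibitors and their antagonists, death receptor genes, Mcl1 and BH3 turnover genes, p53 targets and cell type markers, up to 3 called genes with the largest change and a mean of at least 5 TPM could be named, and the 2 most alike genes for each tested member. Members and lists were chosen with earlier results of these data known. Alternatives were a pseudocount of 0.1, no filter, a filter at 5 TPM, median-ratio or quantile scaling, no trend, a replicate block, the pair of groups alone, a minimum log2 change of 1, embryo values as deposited, and leaving out each library. Loci come from GENCODE M21 on GRCm38, the build of mm10, whereas the study used an earlier release, and promoters from RefSeq on GRCm38.p6.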

Additional observations from a re-analysis of the deposited data

Results flagged for a closer look

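Bmf moved in opposite directions in embryos and ES cells given CX-5461. Its mean level differed by -0.099 TPM in embryos, CX-5461 minus Control, with 0.16 and 0.17 TPM in CX-5461 embryos, against 0.29 and 0.24 TPM in Control embryos. In ES cells the same difference was 1.93 TPM, with 4.75 and 5.85 TPM in CX-5461 cells, against 2.85 and 3.89 TPM in Control cells. Every CX-5461 library lay on its own side of the matching Control libraries. Among all tested genes, both CX-5461 libraries lay above Control for 57.4% in ES cells and below it for 19.2% in embryos. All 10 members were searched for opposite moves, so nothing particular to Bmf is read from this. With no filter on low values, the embryo change in limma was -0.12 (adjusted p = 0.70). The difference between embryos and ES cells was not tested, the embryo levels were too low for Bmf to enter the embryo test, and in ES cells the change did not pass (adjusted p = 0.055) and turned to -0.20 after quantile scaling.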

How the results depend on the processing

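The counts of called members moved with the setting, as did those of all tested genes. Nothing particular to the members is read from the counts given here. With CX-5461 against Control 5 passed after quantile scaling and 1 with a minimum change of 1, beside 2. Among the 5 was Hrk, which was under 1 TPM in all CX-5461 and Control libraries and entered the test through Rotenone. Of all 17638 tested genes, 8322 passed after quantile scaling, beside 9350. With Rotenone 2 passed after quantile scaling, 2 with the pair of groups fitted alone and 1 with a minimum change of 1. These stand beside 4, Hrk among them. Of all tested genes, 6112 passed with Rotenone after quantile scaling, beside 7082. Between CX-5461 and Rotenone 7 passed with the pair alone and 1 with a minimum change of 1, beside 4. Counts of all tested genes are set beside those of the members for quantile scaling only. The member counts for the pair alone, the minimum change, the left-out libraries and the replicate block below are therefore not read as shares. Leaving out each library gave 2 to 4 for CX-5461, 0 to 1 for Rapamycin, 1 to 5 for Rotenone, 2 to 3 for CX-5461 over Rapamycin, 0 to 1 for CX-5461 over Rotenone and 0 to 1 in embryos.

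Of 593 values of single members under alternatives, 496 kept direction and call, 19 gained a call, 36 lost it and 42 changed sign, 2 of these with a call on either side (Mcl1 after median-ratio and Hrk after quantile scaling, both with CX-5461). After median-ratio scaling the changed signs were, for CX-5461, Bcl2l1 -0.11, Mcl1 -0.022, Hrk -0.060 and Bak1 -0.21, for Rapamycin Bcl2l1 -0.15, Mcl1 -0.12, Bcl2l11 -0.015 and Bad -0.14, for Rotenone Mcl1 -0.30 and Bid -0.081, and for CX-5461 over Rapamycin Bid -0.24. After quantile scaling they were, for CX-5461, Hrk -0.54, Bmf -0.20 and Bak1 -0.069, for Rapamycin Bcl2l1 -0.075, Bcl2l11 -0.088, Bmf -0.027 and Bad -0.071, for Rotenone Bmf -0.0087, for CX-5461 over Rapamycin Hrk -0.029, Bmf -0.17, Bid -0.10 and Bik -0.29, and for CX-5461 over Rotenone Bmf -0.19. Median-ratio scaling multiplies each library by a factor, whereas quantile scaling remaps values by rank, and which is nearer to RNA per cell was not tested. With embryo values as deposited, Bad was 0.23. In an alternative chosen after seeing the data, the other BH3-only genes and guardians turned the BH3-only to guardian ratio of CX-5461 minus Control in ES cells to 0.42, beside -0.13 over the members.

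With a library left out, the lone library of its group was assumed to vary as the other groups did. Hrk fell under the filter without either Rotenone library, and in ES cells Hrk and Bik did so at 5 TPM, so these gave no value. Leaving out each library turned signs within these ranges. Bcl2l1 was -0.089 to 0.79 for CX-5461, -0.047 to 0.085 for Rapamycin, -0.41 to 0.36 for Rotenone, -0.11 to 0.77 for CX-5461 over Rapamycin and -0.063 to 0.81 for CX-5461 over Rotenone. Mcl1 was -0.018 to 0.12 for Rapamycin and -0.013 to 0.065 for Rotenone. Hrk was -0.13 to 0.37 and Bak1 -0.11 to 0.61 for CX-5461, Bcl2l11 -0.093 to 0.36 and Bad -0.11 to 0.16 for Rapamycin, and Bad -0.29 to 0.12 in embryos.

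Same-numbered libraries did not deviate together, with correlations of deviations of -0.30 to 0.17 between ES groups and 0.05 in embryos. With the replicate block 2 members passed for CX-5461, 3 for Rotenone, where Bad was lost (adjusted p = 0.051), 3 for CX-5461 over Rapamycin and 3 for CX-5461 over Rotenone, where Bik was lost (adjusted p = 0.065), and 0 for Rapamycin and in embryos. Each group had 2 libraries and depth is unknown, so counting error could not be set beside these values.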

Other observations

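Other lists of apoptosis genes are given beside the share of all tested ES genes, which was 42% higher and 11% lower with CX-5461 and 30.6% higher and 9.57% lower with Rotenone. After median-ratio scaling, 4751 of the 17638 tested genes were higher and 4287 lower with CX-5461, and 3462 and 3395 with Rotenone. After quantile scaling these were 3827 and 4495 with CX-5461, and 2987 and 3125 with Rotenone. The counts of turnover, apoptosome and caspase inhibitor genes are values for these lists only, and nothing particular to them is read from the counts. The death receptor genes were called higher in 7 of 9 tested with CX-5461, and after either other scaling 4 were higher and 2 lower. Fas, a death receptor and p53 target, was at 55.2 ± 5.35 TPM (SD, n = 2), against 6.92 ± 0.93 TPM in Control, a change of 2.83 ± 0.19 (SE, adjusted p = 7.7e-05). Cflar, the inhibitor of caspase-8 activation, changed by 1.69 ± 0.15 (adjusted p = 0.00023). With Rotenone 5 of 9 were higher, Cflar among them at 1.13 ± 0.15 (adjusted p = 0.0027), with 4 higher and 1 lower after median-ratio scaling. Of the genes that act on the stability or placement of Mcl1 and the BH3-only proteins, 5 of 10 were higher and 1 lower with CX-5461. After median-ratio scaling 3 were higher and 4 lower, and after quantile scaling 5 were higher and 2 lower. Usp9x, a deubiquitinase of Mcl1, was at 121 ± 14.9 TPM with CX-5461 and 112 ± 10.97 TPM with Rotenone, against 38.2 ± 17.4 TPM in Control. Fbxw7, a substrate receptor for Mcl1 degradation, was at 65.5 ± 1.18 TPM with CX-5461, against 17.1 ± 10.95 TPM in Control. With Rotenone 4 of these 10 were higher and 2 lower. In that comparison 2 were higher and 2 lower after median-ratio scaling, and 3 were higher and 0 lower after quantile scaling.

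Downstream, apoptosome and caspase genes were higher in 6 of 11 and lower in 1 with CX-5461, and higher in 2 and lower in 2 with Rotenone, while after median-ratio scaling 2 were higher and 3 lower with CX-5461 and 0 higher and 3 lower with Rotenone. Apaf1, the apoptosome scaffold, was at 43.9 ± 6.90 TPM with CX-5461 and 30.0 ± 2.67 TPM with Rotenone, against 10.8 ± 8.38 TPM in Control. Among caspase inhibitors and their antagonists, 3 of 7 were higher and 1 lower with CX-5461 and with Rotenone, and after median-ratio scaling 2 were higher and 1 lower with CX-5461 and 1 higher and 3 lower with Rotenone. Xiap, a direct caspase inhibitor, changed by 1.25 ± 0.14 with CX-5461 (adjusted p = 0.00055) and 1.11 ± 0.14 with Rotenone (adjusted p = 0.0023). Of 20 p53 targets, which include the family genes Bax, Bbc3 and Pmaip1, 19 were higher with CX-5461 and 18 with Rotenone, and after median-ratio scaling 18 were higher and 1 lower with CX-5461 and 14 higher with Rotenone. In none of these lists did a gene pass with Rapamycin or in embryos by limma, where the p53 targets had medians of 0.28 with Rapamycin and 0.80 in embryos. The summed level of 10 primitive endoderm markers was 211 and 229 TPM with CX-5461, 128 and 87.2 TPM with Rapamycin and 181 and 179 TPM with Rotenone, against 47.4 and 77.2 TPM in Control, and its part in the values above was not tested.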
